A study of Mus musculus with 4 samples.

Results

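Retinoic acid, the active acid form of vitamin A, is made and destroyed within tissues, and 9 genes of that route were followed here in the mouse heart ventricle. They were taken by name from the deposited expression table, which lists 46603 genes: the retinaldehyde dehydrogenases Aldh1a1, Aldh1a2 and Aldh1a3, the retinoic acid hydroxylases Cyp26a1 and Cyp26b1, the receptor gene Rarb, and the retinoid carrier or uptake genes Crabp2, Stra6 and Rbp4. The set was chosen on its CPM levels in these same libraries, in which Cyp26b1 and Aldh1a2 stood out, so every value below describes the genes and none is a test of them. Ventricle RNA came from C57Bl6/J mice of 8 to 12 weeks, and 1 library stood for each of 4 groups: P2Y6 KO mice given isoproterenol (50 mg/kg/day), WT mice given isoproterenol at the same dose, P2Y6 KO mice given saline, and WT mice given saline, all by daily intraperitoneal injection over 7 days. P2Y6 is a receptor for extracellular nucleotides, the KO is labelled P2Y6-null, and isoproterenol is a beta-adrenergic agonist that is used to provoke cardiac hypertrophy. The number of hearts behind each library is not stated.

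Cells take up retinol, which circulates bound to RBP4, in some tissues through the membrane receptor STRA6. Retinol dehydrogenases turn it into retinaldehyde, and the ALDH1A enzymes oxidise retinaldehyde irreversibly to retinoic acid. Retinoic acid enters the nucleus with CRABP2 and binds RAR and RXR receptors on DNA, and CYP26 enzymes hydroxylate it for removal. In the embryonic heart Aldh1a2 of the epicardium is a main source of retinoic acid, and several genes of the route, among them Cyp26a1 and Rarb, are themselves targets of the receptors, so that the pathway feeds back on its own supply.

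In the listed genes the isoproterenol libraries held 18771198 (KO) and 20721472 (WT) reads, and the saline libraries 22965087 (KO) and 25637369 (WT). Levels are given in the authors' CPM (a gene's reads for each 1000000 in the library), and folds are ratios of reads after TMM scaling with a 95% counting interval in brackets. No group had a replicate, so the intervals compare single libraries, cover counting error only and carry no p-value. The words called higher or called lower are kept for intervals that lie entirely beyond 1.5-fold, and 14301 genes averaging 10 reads or more are the tested genes. The KO pair and the WT pair each set isoproterenol against saline within a genotype. Of the 9 genes, 6 met that minimum, and Cyp26a1, Stra6 and Crabp2 (means of 8.25, 9.75 and 8.5 reads) did not. P2ry6 stood at 0.533 CPM (KO isoproterenol) and 0.566 CPM (KO saline), against 5.89 CPM (WT isoproterenol) and 5.11 CPM (WT saline). KO was thus lower by 12.2-fold (6.73 to 27.4) under isoproterenol and 8.43-fold (4.93 to 16.8) under saline. The summed level of 7 cardiomyocyte markers was 54107 to 66549 CPM in the 4 libraries, with none of them at 0. In the KO pair 3 of the 7 were called lower, beside 4.22% of all tested genes. In such bulk libraries, fewer cells of a type and less RNA per cell cannot be told apart.

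Cyp26b1 (ENSMUSG00000063415, chr6:84571414-84593908, minus strand, GRCm38), the hydroxylase that clears retinoic acid, had the largest difference of responses among the 6 tested genes. With isoproterenol it had 16.1 CPM (303 reads) in KO and 2.03 CPM (42 reads) in WT, and with saline 5.62 CPM (129 reads) in KO and 19.6 CPM (502 reads) in WT. The order was thus WT saline, KO isoproterenol, KO saline and WT isoproterenol. Before TMM scaling, the counting intervals of the level overlapped slightly between KO isoproterenol (14.4 to 18.1 CPM) and WT saline (17.9 to 21.4 CPM). They overlapped between no other libraries. A scaled ratio of KO isoproterenol to WT saline was not computed.

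In WT mice the treated library was the lower one for Cyp26b1, by 9.04-fold (6.67 to 12.8), the third lowest log2 ratio of the 14301 genes. In KO mice the treated library was the higher one, by 2.53-fold (2.05 to 3.14). Among saline libraries KO was lower than WT by 3.36-fold (2.77 to 4.12), and among isoproterenol libraries KO was higher than WT by 6.8-fold (4.97 to 9.73). The ordering by genotype was therefore opposite under the 2 treatments. The log2 ratio of the KO pair exceeded that of the WT pair by 4.51 (3.97 to 5.05), which ranked 8 from the top of all tested genes. These comparisons share libraries: the WT saline library enters both the treatment comparison of WT and the saline comparison, and the difference of responses uses all 4.

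**Figure D1:**
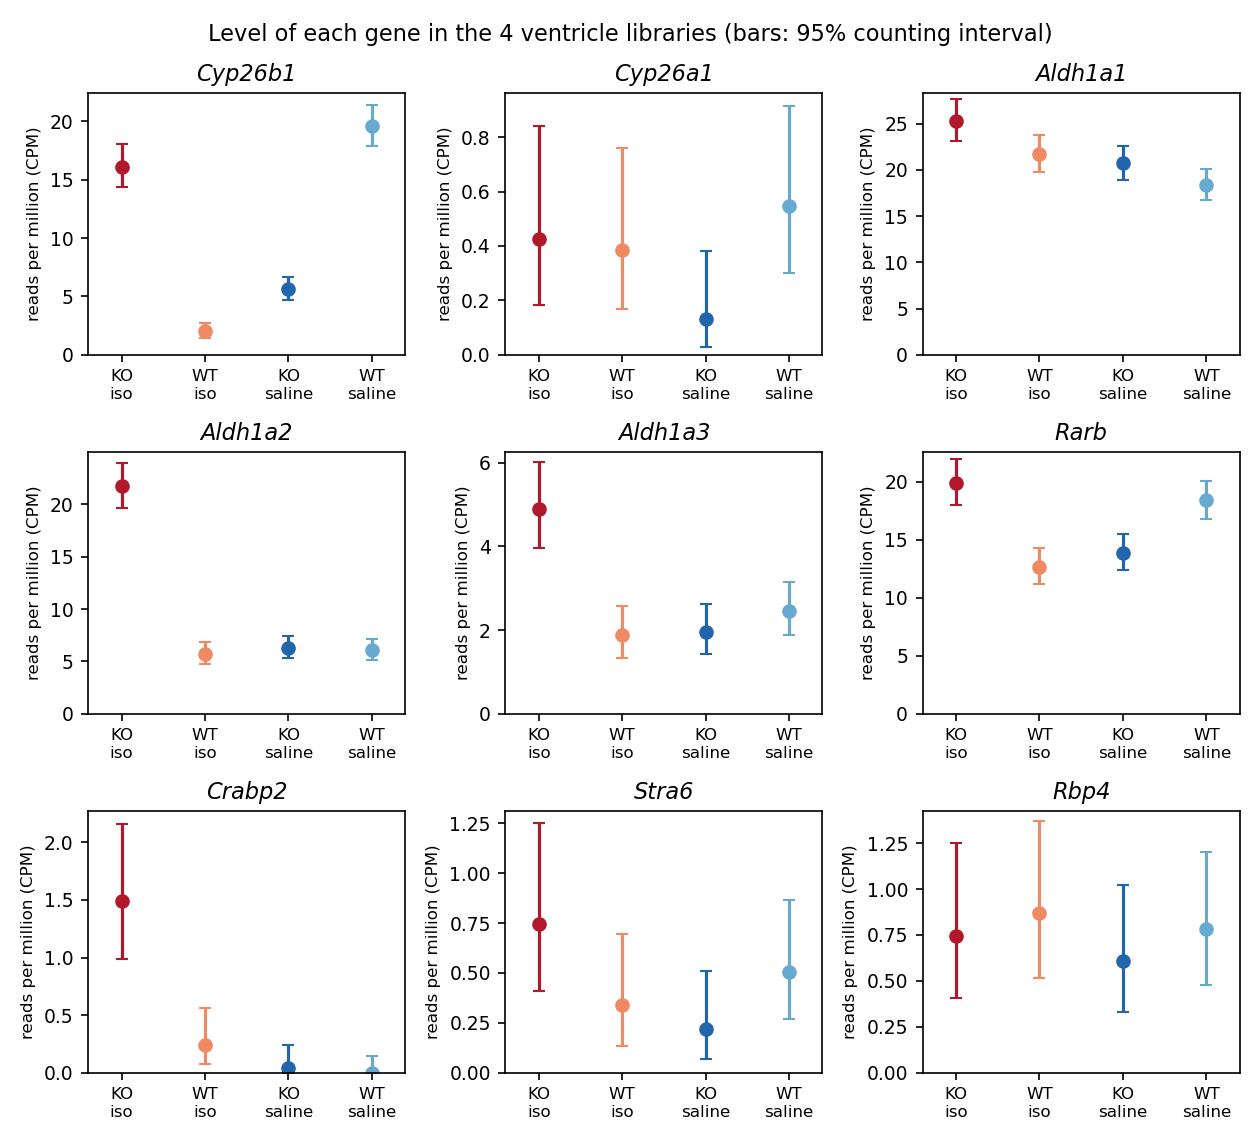
Level of each of the 9 genes in CPM (vertical axis, from 0, scaled per panel) in the KO isoproterenol, WT isoproterenol, KO saline and WT saline libraries, 1 library each; points are deposited values and bars are 95% counting intervals. Cyp26b1 is at 16.1, 2.03, 5.62 and 19.6 CPM in that order, while Aldh1a2 is at 21.8 CPM in the KO isoproterenol library and between 5.74 and 6.31 CPM in the other libraries.

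Cyp26a1 (ENSMUSG00000024987, chr19:37697798-37701536, plus strand), the other hydroxylase, was sparse. Its reads numbered 8 (KO isoproterenol), 8 (WT isoproterenol), 3 (KO saline) and 14 (WT saline), or 0.426, 0.386, 0.131 and 0.546 CPM in the same order. Of the summed CPM of both hydroxylases, Cyp26b1 held 97.4%, 84.0%, 97.7% and 97.3% in these libraries. The lowest and highest Cyp26a1 values were both in saline libraries, where KO was 3.59-fold lower than WT (1.13 to 21.9). Treated and saline libraries did not differ beyond counting error in KO (2.62-fold, 0.69 to 16.8) or in WT (1.3-fold lower, 0.524 to 3.68), intervals that still allow large differences. Summed over both hydroxylases, the levels were 16.6 CPM (KO isoproterenol), 2.41 CPM (WT isoproterenol), 5.75 CPM (KO saline) and 20.1 CPM (WT saline).

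On the side of synthesis, Aldh1a1 (ENSMUSG00000053279, chr19:20492715-20643465, plus strand), an abundant cytosolic retinaldehyde dehydrogenase, differed little. It stood at 25.3 CPM (KO isoproterenol), 21.7 CPM (WT isoproterenol), 20.7 CPM (KO saline) and 18.4 CPM (WT saline). After scaling, the treated library was 1.08-fold higher in KO (0.947 to 1.23) and 1.25-fold higher in WT (1.1 to 1.42), so that the second interval, but not the first, excluded no change. Its near copy Aldh1a7 had 4 to 9 reads per library, and how the authors' counting shared reads between both copies is not stated.

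Aldh1a2 (ENSMUSG00000013584, chr9:71215789-71296243, plus strand), the main retinoic acid synthase of the embryo, was high in 1 library. With isoproterenol it had 21.8 CPM (409 reads) in KO and 5.74 CPM (119 reads) in WT, and with saline 6.31 CPM (145 reads) in KO and 6.08 CPM (156 reads) in WT. The last 3 did not differ beyond counting error. The KO isoproterenol library was 3.03-fold above KO saline (2.51 to 3.7) and 3.26-fold above WT isoproterenol (2.66 to 4.05). In the WT pair the ratio was 0.998 (0.779 to 1.27), and between the saline libraries KO was 1.07-fold higher (0.851 to 1.35). The log2 difference of responses was 1.60 (1.17 to 2.04).

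Aldh1a3 (ENSMUSG00000015134, chr7:66390890-66427517, minus strand), the third dehydrogenase, had the same high library at a lower level. Its levels under isoproterenol were 4.9 CPM (92 reads) in KO and 1.88 CPM (39 reads) in WT, and under saline 1.96 CPM (45 reads) in KO and 2.46 CPM (63 reads) in WT. The treated KO library was 2.19-fold above KO saline (1.53 to 3.22) and 2.23-fold above WT isoproterenol (1.53 to 3.36), both close to the limit for a call. The WT pair did not differ beyond counting error (1.23-fold lower in isoproterenol, 0.816 to 1.89). As a group the 3 dehydrogenases summed to 52.0 CPM (KO isoproterenol), 29.3 CPM (WT isoproterenol), 29.0 CPM (KO saline) and 26.9 CPM (WT saline). Aldh1a2 made up 41.9%, 19.6%, 21.8% and 22.6% of these sums in the same order, and Aldh1a1 48.7%, 74.0%, 71.4% and 68.3%.

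Summed markers of epicardium, fibroblasts, activated fibroblasts and macrophages were highest in the library where Aldh1a2 and Aldh1a3 were high. So were those of skeletal muscle and atrial muscle, the last given below, and, in unscaled CPM only, those of endocardium. Of 8 markers of epicardium and mesothelium, where Aldh1a2 is classically expressed, 7 had enough reads, 1 of them (Msln) was called higher in the treated KO library, and none was at 0. Their summed level was 27.9 CPM (KO isoproterenol), 16.7 CPM (WT isoproterenol), 16.2 CPM (KO saline) and 17.3 CPM (WT saline). Fibroblast markers summed to 8268, 4037, 2657 and 3132 CPM in this order, with 7 of 10 higher and 1 lower in the KO pair and 5 of 10 higher in the WT pair. Markers of activated fibroblasts summed to 2387, 528, 220 and 298 CPM, with 4 of 5 higher in the KO pair and 3 of 5 in the WT pair. Macrophage markers summed to 851, 378, 347 and 387 CPM, with 5 of 7 higher in the KO pair and 1 of 7 in the WT pair. Among all tested genes, 7.09% were called higher and 4.22% lower in the KO pair, and 0.860% and 0.797% in the WT pair. Endothelial markers, with 0 of 6 called in either pair, summed to 905, 862, 913 and 951 CPM. Smooth muscle and pericyte markers summed to 1285, 1285, 1347 and 1422 CPM. Of these 7 markers, 2 were called higher and 1 lower in the KO pair, and 0 in the WT pair. Endocardial markers summed to 176, 156, 147 and 138 CPM, with 1 of 4 (Plvap) called higher in the KO pair and 0 in the WT pair. After TMM scaling their median log2 ratio was -0.08 in the KO pair and 0.27 in the WT pair. Between the isoproterenol libraries it was -0.10, KO against WT. Skeletal muscle markers summed to 7.09, 1.54, 1.09 and 1.33 CPM, with Tnnt3 at 6.39 CPM in the KO isoproterenol library, where Myh1 was at 0, and Myh4 at 0 in all libraries. No epicardial, fibroblast, macrophage or endothelial marker was at 0 in any library. The part of these cells in the values of the retinoid genes was not tested.

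Rarb (ENSMUSG00000017491, chr14:16430839-16819156, minus strand), the retinoic acid receptor whose own gene is a classical target of retinoic acid, was high and low in the same libraries as Cyp26b1, with much smaller differences. Under isoproterenol it had 19.9 CPM (374 reads) in KO and 12.7 CPM (263 reads) in WT, and under saline 13.9 CPM (319 reads) in KO and 18.4 CPM (472 reads) in WT. KO isoproterenol and WT saline were the high pair, and WT isoproterenol and KO saline the low pair, with counting intervals that overlapped within each pair and not between them.

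For Rarb the treated library was higher by 1.26-fold in KO (1.09 to 1.47) and lower by 1.37-fold in WT (1.18 to 1.6). KO was lower than WT by 1.28-fold in saline (1.11 to 1.48) and higher by 1.35-fold in isoproterenol (1.15 to 1.59). None of these reached the limit for a call, and neither did the log2 difference of responses, 0.79 (0.49 to 1.10), which passed it with total-count scaling (1.06). Exons of Rarb share 1793 bases with those of Top2b on the opposite strand in the GENCODE annotation, and whether the authors' counting used strand is not stated, so reads from that stretch cannot be assigned with certainty. Top2b itself was at 94.6 CPM (KO isoproterenol), 78.6 CPM (WT isoproterenol), 81.7 CPM (KO saline) and 86.2 CPM (WT saline), and no ratio between libraries excluded no change.

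With TMM scaling, 183 of the 14301 tested genes (1.28%) were lower in the treated WT library and higher in the treated KO library. Both intervals were clear of no change, and the reverse held for 2.47%. Among the 6 tested retinoid genes, Cyp26b1 and Rarb were of the first kind. So were 2 of 47 other pathway genes with enough reads. These were Rarg, a second retinoic acid receptor, and Bhlhe40, a transcription factor first found as a retinoic acid response gene. Rarg stood at 27.8 CPM (KO isoproterenol), 19.5 CPM (WT isoproterenol), 19.8 CPM (KO saline) and 28.4 CPM (WT saline). Isoproterenol was higher than saline for Rarg by 1.24-fold in KO (1.09 to 1.41) and lower by 1.38-fold in WT (1.22 to 1.56). The third receptor, Rara, did not share the pattern, with 17.6, 13.7, 12.2 and 13.1 CPM in the same order of libraries. Beyond 1.5-fold in both pairs, only Cyp26b1 (1 gene, 0.00699% of those tested) was lower in WT and higher in KO. These shares depend on the scaling. Total-count scaling shifts the median of all tested genes by 0.18 in the KO pair and -0.08 in the WT pair, and the shares were not computed with it.

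Some genes used as markers of atrial muscle shared the direction of Cyp26b1 and Rarb in both pairs. Of 5 such markers, Myl7, Myl4 and Sln were lower in the treated WT library and higher in the treated KO library with both intervals clear of no change. Myl4, an atrial myosin light chain, stood at 99.9 CPM (KO isoproterenol), 68.7 CPM (WT isoproterenol), 52.4 CPM (KO saline) and 88.1 CPM (WT saline), higher in the KO pair by 1.68-fold (1.56 to 1.81) and lower in the WT pair by 1.21-fold (1.14 to 1.3). As for Rarb, KO isoproterenol and WT saline were its high libraries. Its lowest was KO saline, whereas that of Cyp26b1 and Rarb was WT isoproterenol. The 5 summed to 888, 264, 178 and 251 CPM in the order given for Myl4, most of it Nppa in the KO isoproterenol library, with none at 0. Of the 5, 3 were called higher in the KO pair, beside 7.09% of all tested genes. In the WT pair 2, Nppa and Bmp10, were called higher (0.860% of all tested genes), where Cyp26b1 and Rarb were lower. Between the saline libraries 2 were called lower in KO (0.217% of all tested genes). In bulk libraries, reads of these markers from atrial tissue and from ventricular muscle itself cannot be told apart. The part of either in the Cyp26b1 and Rarb values was not tested.

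**Figure D2:**
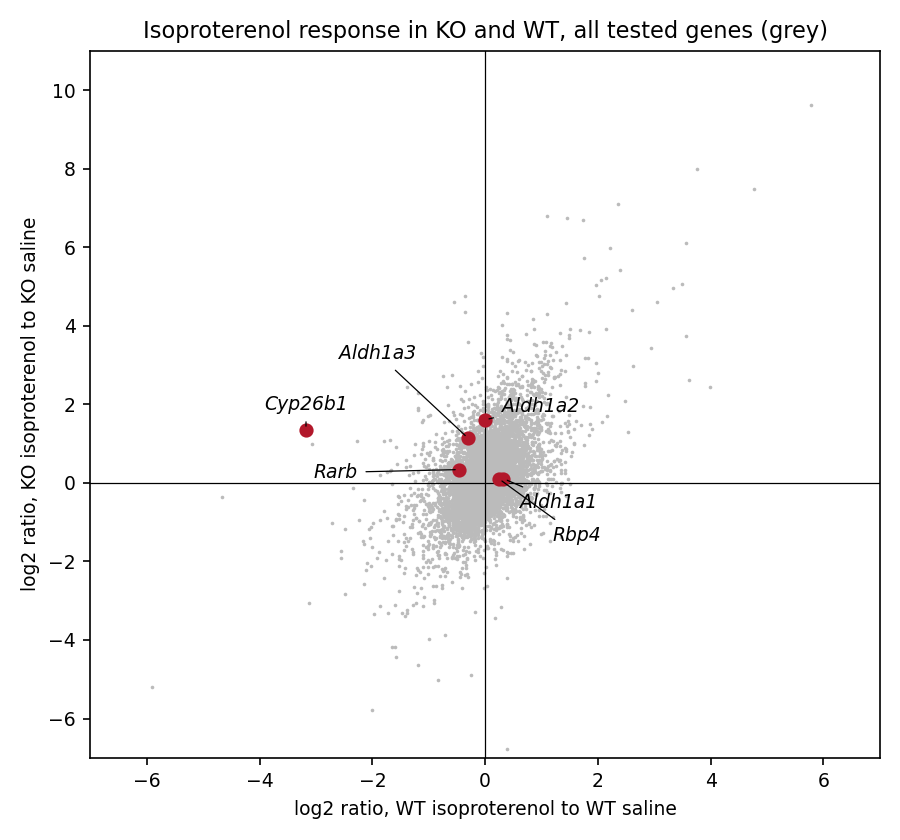
Log2 ratio of isoproterenol to saline in KO (vertical axis) against that in WT (horizontal axis) for the 14301 tested genes (grey points) and the 6 tested retinoid genes (red, named); the KO pair and the WT pair share no library. Cyp26b1 lies at 1.34 in KO and -3.18 in WT, in the upper left where few genes lie, and Aldh1a2 lies at 1.60 in KO and 0.00 in WT.

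The promoters were read from the RefSeq table (GRCm38.p6) for sequence elements that bind retinoic acid receptors, since receptor target genes are among the 9. The search covered the 250 bases before each annotated start, on both strands, for the receptor core motif in 4 spellings, the consensus AGGTCA with its variants AGTTCA then GGGTCA and lastly GGTTCA, singly and as direct repeats spaced by 1, 2 or 5 bases, named DR1, DR2 and DR5. Entries were found for 7 of the 9 genes, with 12 starts in all, and Aldh1a3 and Crabp2 had none. A DR5 was present before the starts of Rarb and Cyp26a1 and before none of the other 10 starts. It was present in 29 of all 32851 promoter windows, or 0.0883%. Rarb and Cyp26a1 were already known as targets of the receptors, so these matches are a description and no test of enrichment. DR1 and DR2 pairs, held by 0.164% and 0.174% of all windows, were found before none of the 12 starts. The elements of both genes are shown because they are the only DR5 matches, printed in the orientation that reads the repeat forward, with 5 flanking bases on each side and both core motifs in capitals.
Rarb, chr14:16575508-16575534, minus strand: ggaagGGTTCAccgaaAGTTCActcgc
Cyp26a1, chr19:37697771-37697797, minus strand: aaattAGTTCAcccaaAGTTCAtcttt
The sites are identical at 15 of 17 bases, and the Cyp26a1 site differs from that of Rarb by G1A and G9C, counted from 1 at the 5′ end of the site. The Rarb element lies 53 to 37 bases before the RefSeq start, in a stretch that the GENCODE annotation places within an exon, and the Cyp26a1 element 32 to 16 bases before it, on the strand opposite to the gene.

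Cyp26b1 had no core motif in its window, while 38.6% of all windows hold at least 1. Its upstream sequence is printed because the largest differences belong to this gene, from the far end of the window to the first base that GENCODE annotates as exon, with a TATA sequence (TATAAA, present in 12.4% of windows on either strand) in capitals.
Cyp26b1, chr6:84593909-84594060, minus strand: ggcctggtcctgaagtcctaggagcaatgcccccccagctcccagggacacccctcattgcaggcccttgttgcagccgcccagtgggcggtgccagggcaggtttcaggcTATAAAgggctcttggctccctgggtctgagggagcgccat
A match describes letters only, and a window without one says nothing of more distant elements or of binding. Aldh1a2, which was high in the KO isoproterenol library, had no core motif in its window either. Rarb had 3 core motifs, Cyp26a1 had 2, and one of the starts of Aldh1a1 and of Rbp4 had 1 each.

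**Figure D3:**
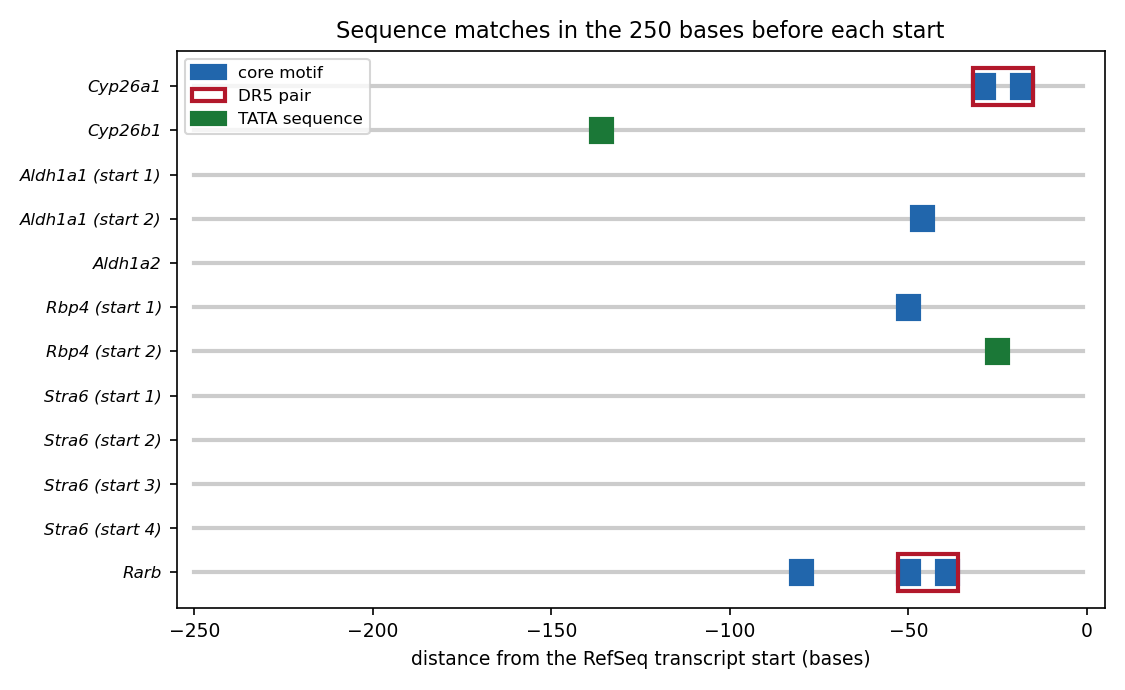
Matches in the 250 bases before each RefSeq start of 7 retinoid genes (horizontal axis, distance from the start in bases; 1 line per start); filled blue boxes are single core motifs, red frames are DR5 pairs and green boxes are TATA sequences. DR5 pairs lie 53 to 37 bases before the start of Rarb and 32 to 16 bases before that of Cyp26a1, and the lines of Cyp26b1, Aldh1a2 and Stra6 hold no core motif.

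The carriers were measured at low depth. Crabp2 (ENSMUSG00000004885, chr3:87948666-87953376, plus strand), which delivers retinoic acid to its receptors, had 28 reads in the KO isoproterenol library, 5 in the WT isoproterenol library, 1 in the KO saline library and 0 in the WT saline library. These are 1.49, 0.241, 0.0435 and 0 CPM. Both treated libraries held more reads than both saline libraries. KO isoproterenol was 20.5-fold above KO saline (4.99 to 1235) and 4.94-fold above WT isoproterenol (2.03 to 17.7). WT isoproterenol was 2.18-fold above WT saline when computed against a floor of 3 reads in the WT saline library, and the counting interval of 5 against 0 reads begins at 1.2-fold.

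Stra6 (ENSMUSG00000032327, chr9:58063788-58153996, plus strand), the membrane receptor for retinol uptake, had 14 and 7 reads in the KO and WT isoproterenol libraries and 5 and 13 reads in the KO and WT saline libraries. The treated KO library was 2.84-fold above KO saline (1.03 to 10.7), and the treated WT library was 1.38-fold below WT saline with an interval that includes no change (0.527 to 4.2). Rbp4 (ENSMUSG00000024990, chr19:38116629-38125281, minus strand), the plasma carrier of retinol that liver and fat secrete, had 14, 18, 14 and 20 reads in the same order and differed in no comparison beyond counting error. Its widest allowed difference was between the isoproterenol libraries, where KO was 1.34-fold lower than WT (0.634 to 2.93). Adipocyte markers summed to 8.26 CPM (KO isoproterenol), 13.8 CPM (WT isoproterenol), 6.88 CPM (KO saline) and 13.6 CPM (WT saline), with Lep at 0 in the KO saline library. The 5 hepatocyte markers had too few reads to be tested, with sums of 0.305 to 0.693 CPM and Serpina1a at 0 in all libraries. The part of fat in the Rbp4 values was not tested.

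**Figure D4:**
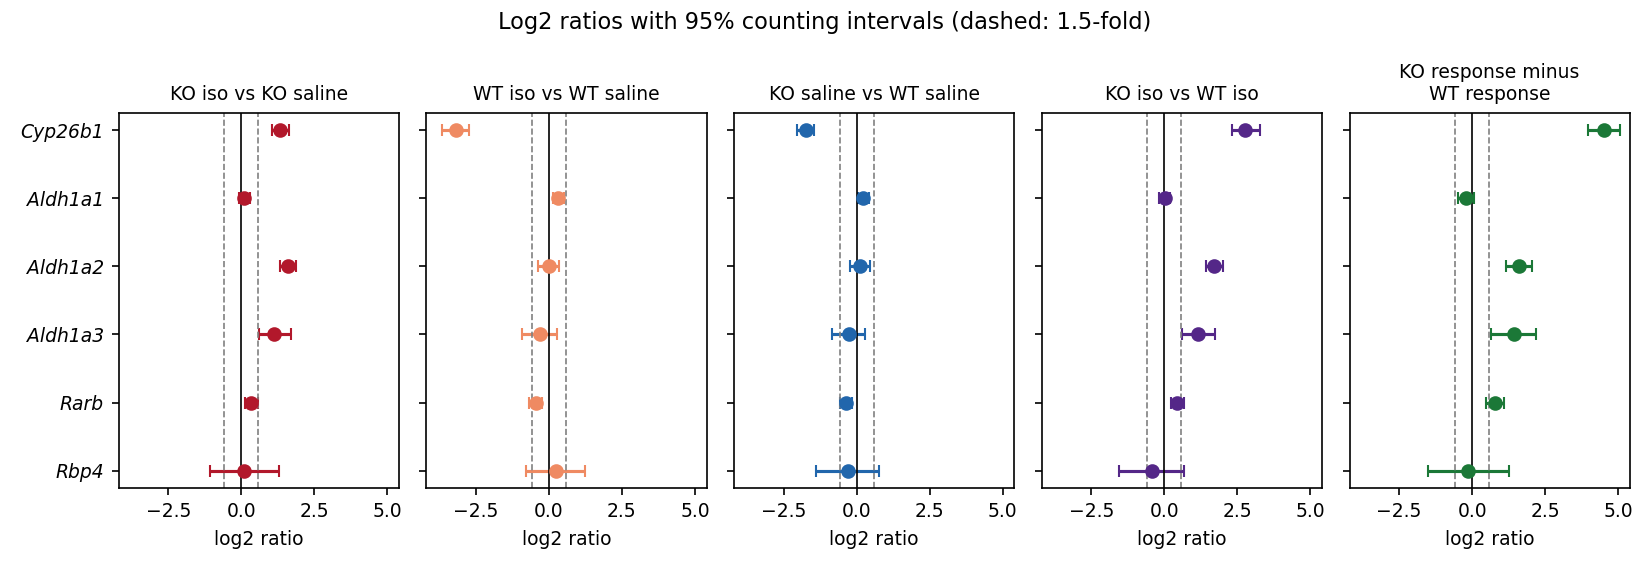
Log2 ratios (horizontal axis) of the 6 tested retinoid genes, for 4 pairs of libraries and for the KO response minus the WT response; bars are 95% counting intervals, the black line is no change and dashed lines mark 1.5-fold. Cyp26b1 lies to the right in the KO pair and to the left in the WT pair, Aldh1a2 and Aldh1a3 lie beyond 1.5-fold only where KO isoproterenol is one of the libraries, and Rbp4 has the widest bars.

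Of the 6 tested genes, 3 (Cyp26b1, Aldh1a2 and Aldh1a3) were called higher and 0 lower in the KO pair, where 11.3% of all tested genes were called, 7.09% higher and 4.22% lower. In the WT pair 0 were called higher and 1 lower, Cyp26b1, beside 1.66% of all tested genes called, 0.860% higher and 0.797% lower. Between the saline libraries 0 were called higher in KO and 1 lower, again Cyp26b1, beside 0.489% of all tested genes, 0.273% higher and 0.217% lower. Between the isoproterenol libraries the same 3 as in the KO pair were called higher in KO and 0 lower, beside 6.0% of all tested genes, 4.20% higher and 1.80% lower. In the difference of responses these 3 had the higher response in KO and 0 the lower, beside 5.57% of all tested genes, 3.83% higher and 1.73% lower. The medians of the 6 log2 ratios were 0.74, -0.15, -0.28, 0.80 and 1.11 in these 5 comparisons, against 0.00 for all tested genes in each. Since the genes were picked with these values in view, the counts are not read against the shares. Total-count scaling moves the median of all tested genes by 0.18, -0.08, -0.05, 0.22 and 0.26, and the share of calls that are higher to 80.2%, 40.6%, 49.3%, 90.3% and 92.6%, against 62.7%, 51.9%, 55.7%, 69.9% and 68.8% with TMM. The calls of the 6 genes in the comparisons of 2 libraries had the same sign under both scalings.

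Per kilobase of annotated exon, levels can be compared between genes. In the WT saline library Aldh1a1 (3.72 CPM per kb, 3.39 to 4.07), Cyp26b1 (3.66, 3.35 to 3.99) and Rarb (3.50, 3.19 to 3.83) did not differ beyond their counting intervals, and Aldh1a2 followed at 2.69 CPM per kb (2.28 to 3.14). In the WT isoproterenol library Cyp26b1 was at 0.379 CPM per kb (0.273 to 0.512), level with Aldh1a3 (0.408, 0.290 to 0.557) and below Aldh1a1 (4.40), Aldh1a2 (2.54) and Rarb (2.41), with Rbp4 (0.647, 0.383 to 1.02) between. In the KO isoproterenol library Aldh1a2 was the highest of the 9 genes at 9.62 CPM per kb (8.71 to 10.6), above Aldh1a1 (5.13, 4.67 to 5.61), Rarb (3.78) and Cyp26b1 (3.02). In the KO saline library the order was Aldh1a1 (4.19), Aldh1a2 (2.79), Rarb (2.64) and Cyp26b1 (1.05), where the second and the third did not differ beyond their intervals (2.35 to 3.28 and 2.36 to 2.94). Cyp26b1 was thus above Aldh1a2 in the WT saline library and below it in the other libraries, while Aldh1a1 stayed first or second in each. Exon length is the union over annotated transcripts, so a gene that uses a short transcript is understated. For Rarb it includes the 1793 bases shared with Top2b, where reads cannot be assigned with certainty, so its level per kilobase is uncertain.

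Genes with a profile like that of Cyp26b1 were mostly sparse. The distance between profiles was taken over the 4 libraries as the Euclidean distance of log2 scaled reads, each centred on its own mean, and its median to all other tested genes was 2.52. The 5 nearest genes were Chd5 (distance 1.0), Ccdc120 (1.07), Gdf15 (1.20), Palm3 (1.27) and Gm21967 (1.28). Chd5, which encodes a chromatin remodeller, had 16 and 4 reads in the KO and WT isoproterenol libraries and 8 and 20 reads in the KO and WT saline libraries, and Gdf15, a stress-induced cytokine, had 23, 5, 13 and 21 reads in this order. Chd5 averaged 12.0 reads a library and Palm3 16.5, so counting error limits the likeness. The 5 nearest genes of Rarb, Aldh1a2 and Aldh1a1 shared 0 genes with these.

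The other steps of the route were described from 6 lists that hold 71 genes, 47 of them with enough reads. In the KO pair 2 of the 47 were called higher and 7 lower (3 and 4 with total-count scaling), beside 7.09% higher and 4.22% lower among all tested genes. In the WT pair 0 were called higher and 3 lower (0 and 4 with total-count scaling), beside 0.860% and 0.797%. Between the isoproterenol libraries 1 was called higher in KO and 2 lower (4 and 1 with total-count scaling), beside 4.20% and 1.80%. Between the saline libraries 0 were called either way, beside 0.273% higher and 0.217% lower. The medians of the 47 log2 ratios were -0.12 in the KO pair and -0.15 in the WT pair, near the 0.00 of all genes.

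Storage and ester hydrolysis of retinol was the list with most calls. Of its 8 tested genes 5 were called lower in the KO pair (median -0.92), where 4.22% of all tested genes were, and 2 in the WT pair (median -0.51), where 0.797% were. Lrat, which esterifies retinol for storage, stood at 0.586 CPM (KO isoproterenol), 1.16 CPM (WT isoproterenol), 1.87 CPM (KO saline) and 3.90 CPM (WT saline), lower in the treated library by 3.51-fold in KO (1.84 to 7.8) and 3.14-fold in WT (2.02 to 5.2). Ces1d, a carboxylesterase that hydrolyses retinyl esters and triglycerides, stood at 11.2, 41.8, 103 and 118 CPM in that order, and KO was 4.32-fold below WT among the isoproterenol libraries (3.72 to 5.06). The other calls in the KO pair were Lpl, Lipe and Cd36, best known for the release and uptake of fatty acids. Lipe was 2.23-fold lower (1.98 to 2.52). Lpl, with the most reads of the list, was 2.17-fold lower (2.15 to 2.2) and Cd36 was 1.65-fold lower (1.63 to 1.68), which was not called with total-count scaling.

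Of 10 tested genes for enzymes that interconvert retinol and retinaldehyde, 1 was called higher and 1 lower in the KO pair. Among all tested genes 7.09% and 4.22% were. In the WT pair 0 of the 10 were called, beside 1.66% of all tested genes. Several others differed by less with intervals clear of no change. Rdh10, the principal retinol dehydrogenase of retinoic acid synthesis, stood at 8.15 CPM (KO isoproterenol), 6.85 CPM (WT isoproterenol), 7.58 CPM (KO saline) and 6.94 CPM (WT saline), with no ratio that excluded no change. Rdh11, a reductase of retinaldehyde, was 2.21-fold higher in the treated KO library (1.71 to 2.89), at 9.75 CPM against 3.88 CPM in KO saline. Dhrs3, which returns retinaldehyde to retinol and is induced by retinoic acid, was lower in both treated libraries without reaching the limit, by 1.26-fold in KO (1.17 to 1.37) and 1.4-fold in WT (1.29 to 1.51). Adh1, an alcohol dehydrogenase that can oxidise retinol, was 2.16-fold lower in KO than in WT isoproterenol (1.68 to 2.83), a call that total-count scaling removed. Dhrs4 was 1.74-fold lower in the KO pair (1.6 to 1.9), which total-count scaling also removed. Adh5, the alcohol dehydrogenase with the most reads of the list, stood at 70.0 to 74.6 CPM in the 4 libraries.

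Of the 6 carriers listed, 2 had enough reads and 0 were called in either pair, beside 11.3% (KO pair) and 1.66% (WT pair) of all tested genes. Fabp5, the carrier with the most reads, which can also take retinoic acid, was at 36.3 to 43.7 CPM in the 4 libraries.

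Nuclear receptors and their coregulators had 0 of 14 genes called in either pair, beside 11.3% (KO pair) and 1.66% (WT pair) of all tested genes. Ncor1, the corepressor with the most reads, was at 103 CPM (KO isoproterenol), 93.1 CPM (WT isoproterenol), 116 CPM (KO saline) and 118 CPM (WT saline). Of the list of 23 genes known to respond to retinoic acid, 13 were tested, and 1 was called higher and 1 lower in the KO pair (7.09% and 4.22% of all tested genes), with 0 higher and 1 lower in the WT pair (0.860% and 0.797%). The higher one was Tgm2, a transglutaminase that many stimuli induce, which stood at 496 CPM (KO isoproterenol), 170 CPM (WT isoproterenol), 180 CPM (KO saline) and 176 CPM (WT saline). As with Aldh1a2, the KO isoproterenol library was high and the other libraries lay close together, and Tgm2 was 2.43-fold higher in the KO pair (2.34 to 2.52) and 1.02-fold in the WT pair (0.976 to 1.07). Ret, a receptor tyrosine kinase, was lower in both treated libraries, by 2.05-fold in KO (1.56 to 2.73, not called with total-count scaling) and 2.45-fold in WT (1.93 to 3.15). The list did not move as one, with medians of -0.07 in the KO pair and 0.03 in the WT pair. Among other P450 enzymes, Cyp1b1, which also metabolises retinoids, stood at 16.8 CPM (KO isoproterenol), 9.07 CPM (WT isoproterenol), 8.71 CPM (KO saline) and 5.85 CPM (WT saline). It was 1.7-fold higher in the treated KO library (1.42 to 2.04), a call only with total-count scaling, and 1.64-fold higher in the treated WT library (1.32 to 2.04).

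**Figure D5:**
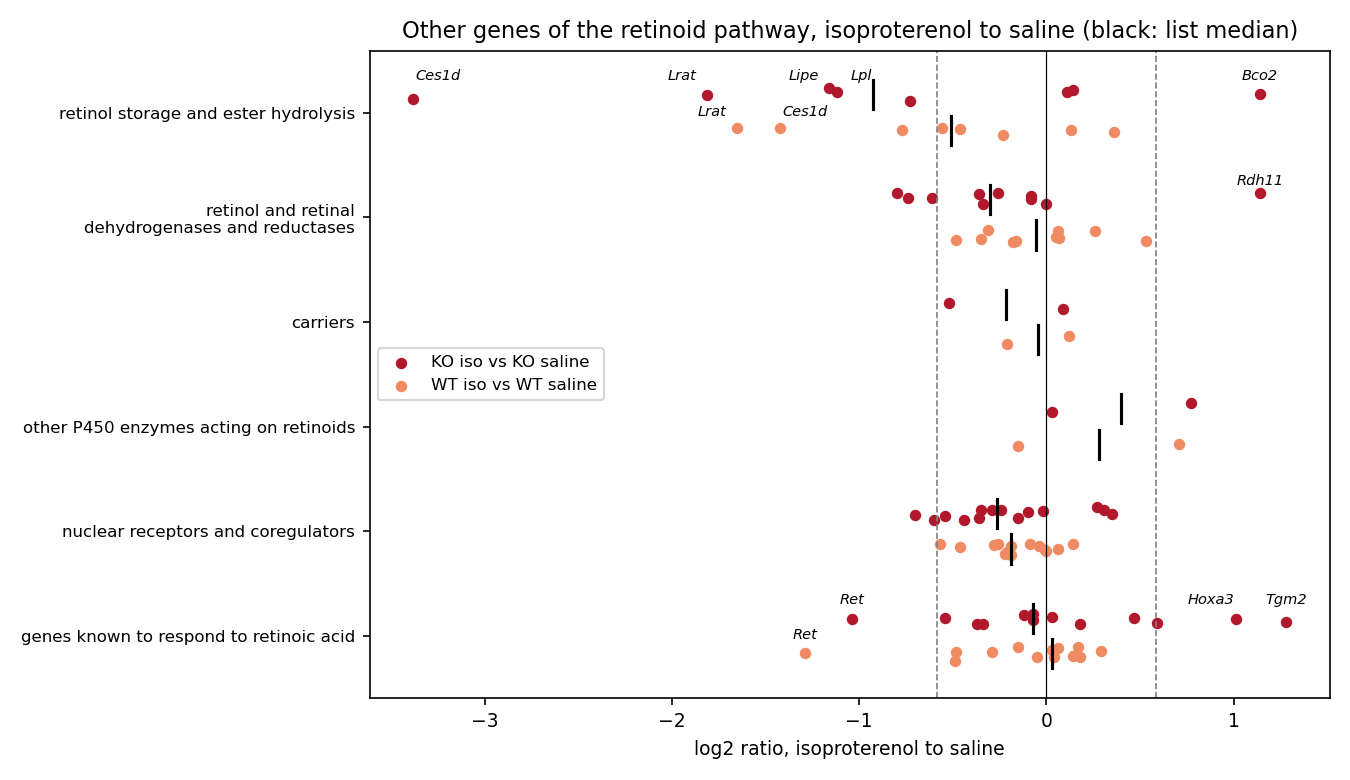
Log2 ratio of isoproterenol to saline (horizontal axis) for the tested genes of 6 further retinoid lists, in the KO pair (dark red) and the WT pair (orange); each point is a gene, black ticks are list medians, dashed lines mark 1.5-fold and genes at or beyond a log2 ratio of about 1 are named. Ces1d at -3.38 in the KO pair is the lowest point, and Lrat and Ret lie on the lower side in both pairs.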

How the data were processed

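Poly(A) RNA libraries were made with a stranded kit, per the labels' protocols, and HTSeq did the counting on GRCm38.p4 (mm10), per the submitters' processing notes. Not given in the sources used here are the aligner, the annotation and the strand setting. The authors deposited 1 table of CPM, whose columns that name a genotype but no agent were read as saline. All values above 0 (100%) were whole multiples of the smallest in their column within 0.01 reads, so whole reads were recovered.

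Ratios were scaled by TMM (edgeR 4.0.16; factors 1.10, 0.946, 0.966 and 0.999 for KO isoproterenol, WT isoproterenol, KO saline and WT saline) with 0.5 added to each count, and given exact conditional 95% intervals (scipy 1.17.1). The difference of responses has a normal interval on the log scale from the 4 counts. Without molecular identifiers, reads need not be separate molecules.

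An additive fit of genotype and treatment with limma 3.58.1 on log2(CPM + 1), with 1 residual degree of freedom, called 368 genes by treatment and 14 by genotype at an adjusted p (Benjamini-Hochberg) of 0.05. With edgeR's quasi-likelihood test of the recovered reads these were 22 and 3. Neither was used for single genes.

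Positions and exon lengths came from GENCODE M21 (GRCm38), which matched 46091 of 46603 IDs, and promoter sequences from RefSeq GRCm38.p6. The genes and lists were chosen with earlier results of these data known. 1 gene was taken out of the lists and is not reported here. Named pathway genes are those called in any comparison and the gene with the most reads of each list, and others (Rdh10, Dhrs3, Rara, Rarg and Bhlhe40) were chosen after their values were seen. The 5 profiles nearest to Cyp26b1 are named.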

Additional observations from a re-analysis of the deposited data

Results flagged for a closer look

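For Cyp26b1 and Rarb, the isoproterenol library was above the saline library in KO and below it in WT. For each gene both counting intervals were clear of no change, and the Rarb ratios did not reach the limit for a call. The log2 difference of responses, KO minus WT, was 4.51 for Cyp26b1 and 0.79 for Rarb. With 1 library per group the difference was not tested.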

How the results depend on the processing

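The number of retinoid genes called in each comparison was the same with DESeq2 size factors, a mean of at least 50 reads, and 1 added to each count. Without the filter it was 4 in place of 3 in the KO pair and between isoproterenol libraries. With a 2-fold limit it was 2 in place of 3 in these comparisons and in the difference of responses, where total-count scaling gave 4. With the 2-fold limit the counts of all genes were 701 in the KO pair, 84 in the WT pair, 31 between saline libraries, 283 between isoproterenol libraries and 265 for the difference of responses, and with a mean of at least 50 reads 44 genes differed between saline libraries. In the additive fit, treatment called 647 genes with a pseudocount of 0.1, 22 with edgeR and 965 without the filter, and genotype called 60, 3 and 195. All 45 log2 ratios of single retinoid genes, those of genes with too few reads for a call included, stayed within their intervals under DESeq2 size factors and with 1 added, and no call changed. Total-count scaling took the Rarb difference of responses past the limit and moved Aldh1a1 outside its interval in 2 comparisons, to 0.22 between isoproterenol libraries and 0.05 in the difference of responses. No paired analysis was possible because each group holds 1 library and the labels give no replicate numbers. Depth limits Cyp26a1, Stra6, Rbp4 and Crabp2 most, since their intervals span several-fold differences.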
